A study of Mus musculus with 29 samples.

Results

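The genes described here encode the proteins of the cytosolic ribosome. They were chosen by symbol, as all rows of the count table named Rpl or Rps with a number and at most a short suffix, together with Rplp0, Rplp1, Rplp2 and Rpsa, and without the Rps6k kinases. This gave 84 of 22537 gene symbols, with 51 of the large subunit and 33 of the small subunit. RNA was taken from the whole tibialis anterior (TA) muscle of untreated male C57BL/6 mice of the wild-type aging colony of the National Institute on Aging, and no group carried a transgene, deletion or treatment. The groups were 7 mice at 6m (6 months), 7 mice at 24m and 8 mice at 28m, the last labelled as 28 months or older. Poly-A RNA was sequenced in 2 runs, with the 24m mice in the first, the 28m mice in the second, and each of the 7 mice at 6m in both runs, in separate libraries, which makes 29 libraries. Each old group was compared with the 6m libraries of its own run. Group sizes here follow the sample labels, since the design text of the series swaps the numbers of 24m and 28m mice.

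The cytosolic ribosome is built from ribosomal RNA and about one copy of each ribosomal protein, so the genes of these proteins are usually transcribed in step. Their mRNAs begin with a stretch of pyrimidines, the terminal oligopyrimidine (TOP) tract, through which mTOR and the RNA-binding protein LARP1 set how strongly they are translated. Skeletal and cardiac muscle also express Rpl3l, a paralogue of Rpl3 which takes the place of the RPL3 protein in part of the ribosomes of striated muscle, whereas most other tissues use Rpl3.

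The start regions are shown because the TOP tract is the sequence feature by which these mRNAs are known. RefSeq start regions on GRCm38.p6 were at hand for 63 of the 84 genes, each from 250 bases before to 50 bases after an annotated start. The lines below give 40 bases before and 20 bases after the start on the coding strand, with the longest run of at least 7 pyrimidines that reaches into the stretch from 5 bases before to 10 bases after the start in capitals. Rpl38, Rpl12, Rpl13a and Rpl39 are 4 of the 8 genes with the largest rise at 28m and Rps6 is the substrate of the S6 kinases, whereas Rpl7l1 and Rpl3l did not pass the test at 28m. The lines are a selection and do not show whether the run goes with the rise. Among genes not shown, Rpl34, which also did not pass, has a run of 20 bases. Rpl15, with the smallest rise that passed, has a run of 17 bases.
Rpl38, chr11:114668540-114668599, plus strand: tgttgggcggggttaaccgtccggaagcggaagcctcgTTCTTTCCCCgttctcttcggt
Rpl12, chr2:32961672-32961731, plus strand: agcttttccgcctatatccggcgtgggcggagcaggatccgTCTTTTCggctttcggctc
Rpl13a, chr7:45128726-45128785, minus strand: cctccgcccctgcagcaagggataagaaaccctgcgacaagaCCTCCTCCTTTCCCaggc
Rpl39, chrX:37085203-37085262, minus strand: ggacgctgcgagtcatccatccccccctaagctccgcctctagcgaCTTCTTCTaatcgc
Rps6, chr4:86857348-86857407, minus strand: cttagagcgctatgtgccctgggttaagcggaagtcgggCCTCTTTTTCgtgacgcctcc
Rpl7l1, chr17:46782637-46782696, minus strand: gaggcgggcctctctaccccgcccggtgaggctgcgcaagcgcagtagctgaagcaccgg
Rpl3l, first start, chr17:24727786-24727845, plus strand: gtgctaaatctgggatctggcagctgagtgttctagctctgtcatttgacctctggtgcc
Rpl3l, second start, chr17:24732645-24732704, plus strand: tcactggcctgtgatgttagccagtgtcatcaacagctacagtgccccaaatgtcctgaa

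A pyrimidine run of this kind was found at 32 of the 63 genes (50.8%) and at 18.8% of the 27025 genes with a RefSeq start region. In the whole region, on either strand, the ETS core CGGAAG was found at 66.7% of the 63 genes and at 18.8% of all genes, and the Sp1 box GGGCGG at 61.9% and 38.2%. The YY1 core GATGGC was found at 23.8% of the 63 genes and at 15.9% of all genes. GGGCGG and CGGAAG can overlap, and a region that holds GGGCGGAAG counts for both. Neither start region of Rpl3l held any of these features. The 31 genes with a pyrimidine run that were tested at 28m had a median log2 fold change of 0.93, from 0.51 to 1.16. For the 29 tested genes without one the median was 0.89, from 0.13 to 1.06. These are descriptions of letters around annotated starts, not of binding or translation.

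Of the 84 genes, 77 had a median of at least 600 counts per library. The other 7 were Rpl34, Rps4y2, Rps27, Rpl30, Rpl39l, Rpl26 and Rpl10l. Rpl26, a protein of the large subunit, and Rpl10l, a testis copy of Rpl10, were listed at 0 counts in all 29 libraries. Rps27 had 2 to 26 counts, Rpl30 had 3 to 36 and Rpl39l, a testis copy of Rpl39, had 0 to 24. Ribosomal protein genes have many processed copies in the genome and only reads with a single place were counted, so these low values and those of genes with near-identical copies are uncertain. Rps4y2 is annotated as a processed pseudogene on chromosome 6, and 19 of the 84 genes overlap another protein-coding gene in the annotation.

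The 84 genes together took a larger share of all counts in the old mice. The share was 0.890% ± 0.031 (SD, n = 7) in the second-run 6m libraries and 1.57% ± 0.45 (SD, n = 8) at 28m. The 28m mice ranged from 1.01% to 2.37% and all lay above the highest of these 6m libraries, at 0.927%. In the first run the share was 0.984% ± 0.184 (SD, n = 7) at 6m and 1.51% ± 0.98 (SD, n = 7) at 24m. Replicate 4 of the 24m mice was at 3.73%, the highest of all 29 libraries, and the other 6 mice at 24m lay between 1.08% and 1.21%. Without that mouse the 24m mean was 1.14% ± 0.05 (SD, n = 6). The first-run library of 6m replicate 4 was at 1.38%, above the 0.845% to 0.981% of the other 6 mice, and the second library of the same mouse was at 0.862%.

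**Figure D1:**
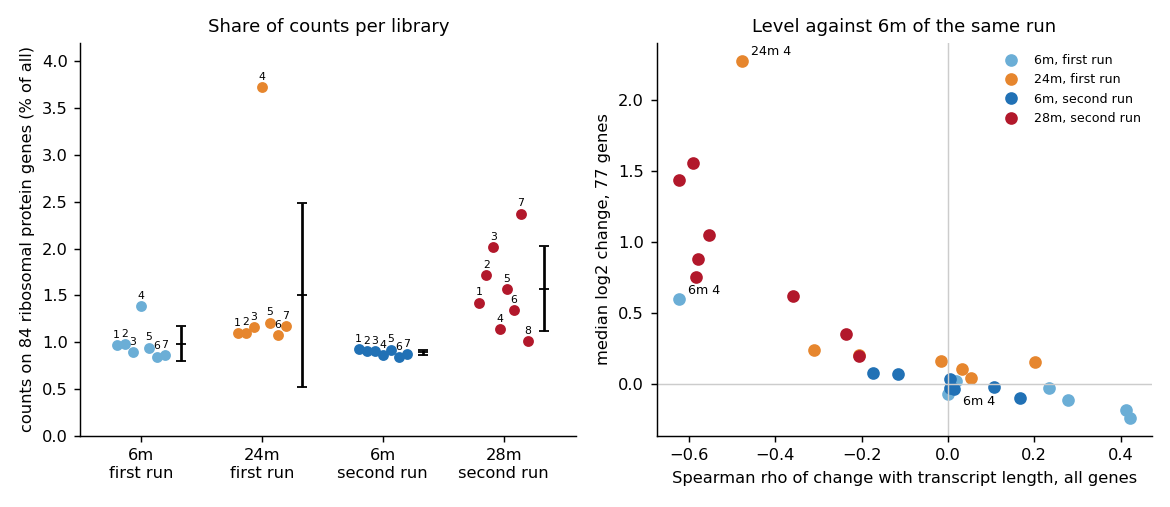
Left, the share of all counts on the 84 ribosomal protein genes in percent for every library, with the replicate number above each point and the mean ± SD beside each group. Right, the median log2 change of the 77 well-counted genes against the 6m libraries of the same run (vertical axis) and, over all genes with a known transcript length, Spearman's rho between a library's change and that length (horizontal axis), with 1 point per library. The 28m libraries lie at negative rho and at medians from 0.20 to 1.55, and 6m replicate 4 has 2 distant points, at 0.60 in the first run and -0.03 in the second.

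At 28m, the cytosolic ribosomal protein genes rose together. The quasi-likelihood test of edgeR was run on 12994 genes, with p adjusted by Benjamini-Hochberg over all of them. Of the 84 genes 80 were tested, and 76 of these were higher at 28m than at 6m (adjusted p under 0.05) and 0 were lower, where 24.3% of all genes tested were higher and 22.9% were lower. The log2 fold changes ran from 0.13 to 1.29 with a median of 0.91, a fold of 1.88, and the median over all genes tested was 0.01. The large subunit had 44 of 47 tested genes higher with a median of 0.90, and the small subunit 32 of 33 with a median of 0.93. For 65 of the 80 genes all 8 mice at 28m lay above all 7 mice at 6m, which was so for 6.21% of all genes tested. With the first-run 6m libraries as reference, 74 of 81 genes were higher, where 12% of all genes were higher and 11% lower. Without 6m replicate 4 there, 75 of 81 were higher, where 19.1% of all genes were higher and 17.8% lower. After removal of a trend in transcript length and GC content, described below, the median against the second-run 6m libraries was 0.42. Then 72 of 80 genes were higher and 1 lower, where 19% of all genes were higher and 13.2% lower. Against the second-run 6m libraries, Rpl30, Rpl39l, Rpl26 and Rpl10l had too few counts to be tested.

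The size of the rise varied from mouse to mouse at 28m. Against the mean of the 6m libraries of the run, the median log2 change over the 77 well-counted genes was 1.55 in replicate 7, 1.44 in replicate 3 and 1.05 in replicate 2. It was 0.88 in replicate 5, 0.75 in replicate 1, 0.62 in replicate 6, 0.36 in replicate 4 and 0.20 in replicate 8. The 6m mice of the run lay between -0.10 and 0.08. In the mouse with the smallest rise, replicate 8, 65 of the 77 genes were still above every 6m library of the run, and in the other 7 mice 74 to 77 were. The SD of these medians over the 8 mice was 0.48.

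**Figure D2:**
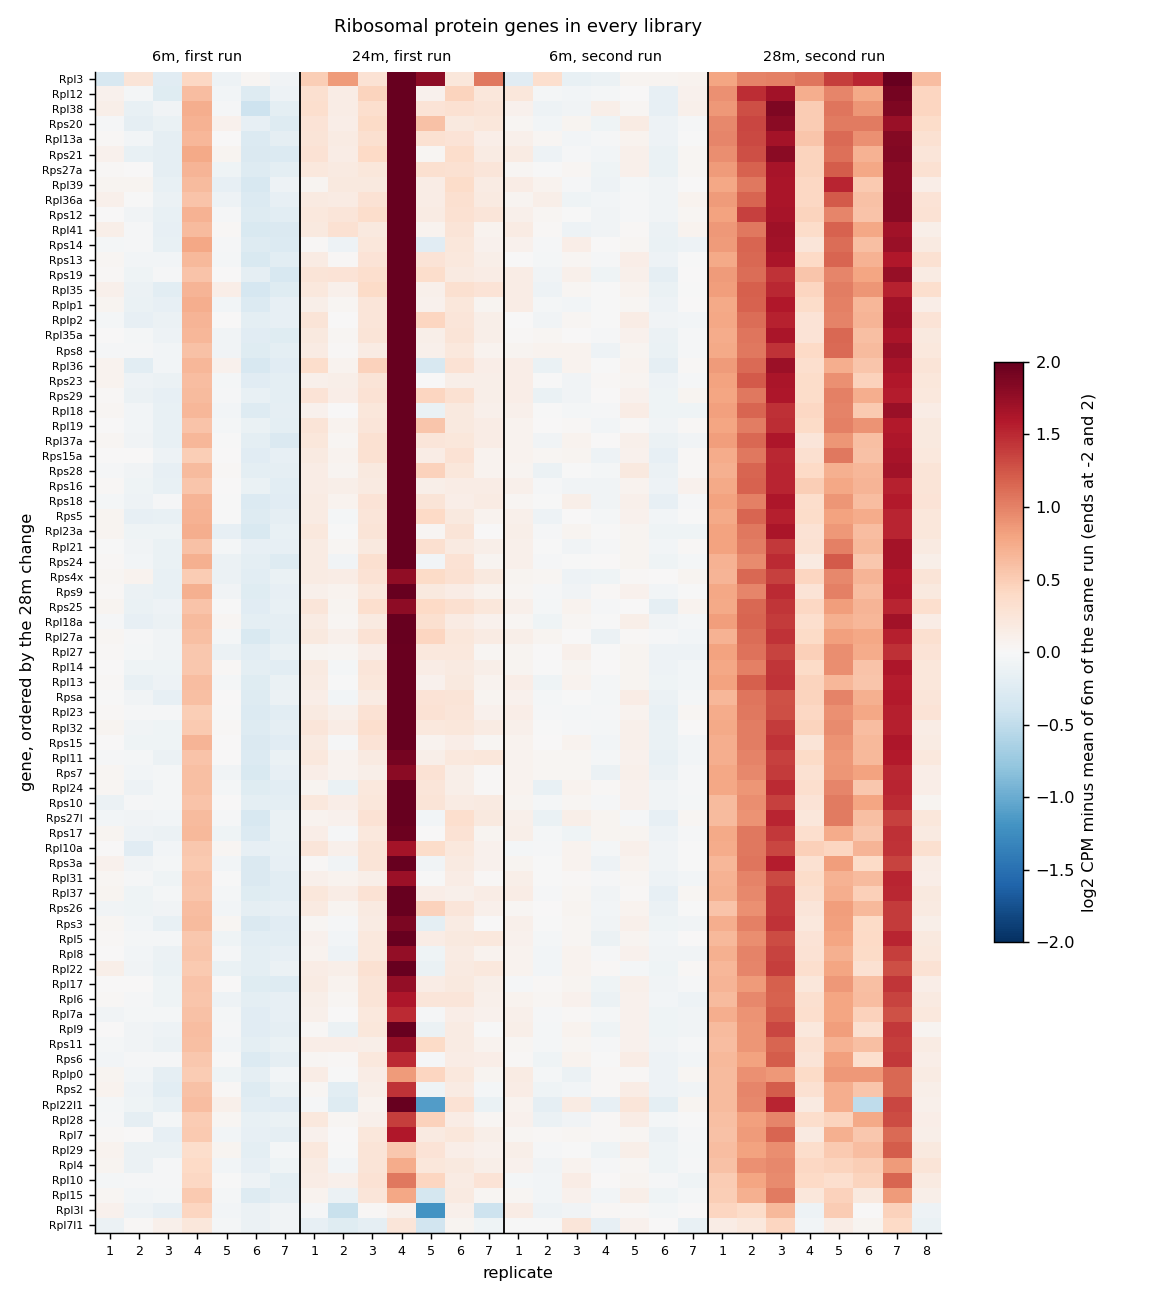
Log2 CPM of the 77 well-counted ribosomal protein genes (rows, ordered by the fitted 28m change) in each of the 29 libraries (columns, by group and replicate), minus the mean of the 6m libraries of the same run. Colours end at -2 and 2. In each 28m column 65 to 77 of the 77 genes are above every 6m library of the run, by amounts that differ between genes, and 24m replicate 4 (median 2.27) and the first-run library of 6m replicate 4 (median 0.60) stand apart from their groups.

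Values of single libraries are CPM, the counts of a gene per fixed total, scaled by TMM over all 29 libraries. Rpl38, a small protein at the surface of the large subunit known for its part in translating Hox mRNAs, had a lowest, median and highest value of 26.9, 31.1 and 32.8 CPM in the 6m mice of the second run. At 28m the values were 41.0, 59.8 and 111 CPM, and the groups did not overlap. Its log2 fold change was 1.16 ± 0.20 (SE; adjusted p = 0.000692, edgeR). Rpl12, part of the base of the stalk that binds elongation factors, had 93.1, 101 and 121 CPM at 6m and 141, 201 and 393 CPM at 28m. Its log2 fold change was 1.16 ± 0.19 (SE; adjusted p = 0.000538, edgeR), and here too the groups did not overlap. The 8 genes with the largest rise were Rpl3 (1.29), Rpl12, Rpl38, Rps20 (1.15), Rpl13a (1.14), Rps21 (1.12), Rps27a (1.08) and Rpl39 (1.06), in log2 fold change. Rpl13a is known for silencing inflammatory mRNAs outside the ribosome, and Rps27a is made as a fusion with ubiquitin. No gene fell, so there is no list of largest falls.

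The mRNAs of all 3 stalk proteins rose, and the differences between them were not tested. Rplp1 had a log2 fold change of 0.98 ± 0.19 and Rplp2 of 0.97 ± 0.19, and Rplp0, the protein that anchors them, had 0.73 ± 0.12 (SE; adjusted p = 0.0014, 0.00119 and 0.000589, edgeR). Rplp0 had a lowest, median and highest value of 407, 448 and 494 CPM at 6m and of 492, 806 and 974 CPM at 28m, and all but 1 of the 28m mice exceeded every 6m mouse. Rpl5 and Rpl11, which form the particle with 5S RNA that binds MDM2 when ribosome assembly fails, changed by 0.80 and 0.89 in log2. Rps19, the gene most often mutated in Diamond-Blackfan anaemia, rose by 0.996 and Rps25, which some viral mRNAs need for internal initiation, by 0.92. Rpsa, the laminin receptor precursor, rose by 0.90, and Rps6 by 0.73, from 72.6 ± 4.5 (SD, n = 7) to 123 ± 40 CPM (SD, n = 8). All of these had adjusted p under 0.05.

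The smallest rises among the genes that passed were those of Rpl15 (0.51 ± 0.12), Rpl10 (0.60 ± 0.13) and Rpl4 (0.61 ± 0.10), in log2 fold change with its SE. With the trend in transcript length and GC content removed, as described below, Rpl15 and Rpl10 did not pass as higher. Rpl4 was the most highly counted gene of the family at 28m, with a mean of 775 ± 143 CPM (SD, n = 8) against 499 ± 24 at 6m (SD, n = 7). Rpl10, which joins the large subunit late in its assembly, had 199.8 ± 49 and 129 ± 7 CPM. The 4 tested genes that did not pass were Rpl34 (log2 fold change 0.51 ± 0.24, adjusted p = 0.0842), Rpl3l (0.27 ± 0.11, adjusted p = 0.0519), Rps4y2 (0.29 ± 0.19, adjusted p = 0.208) and Rpl7l1 (0.13 ± 0.09, adjusted p = 0.248), by edgeR. Rpl34 and Rps4y2 had few counts, between 24 and 153 per library, whereas Rpl3l had 8220 to 20433 counts.

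**Figure D3:**
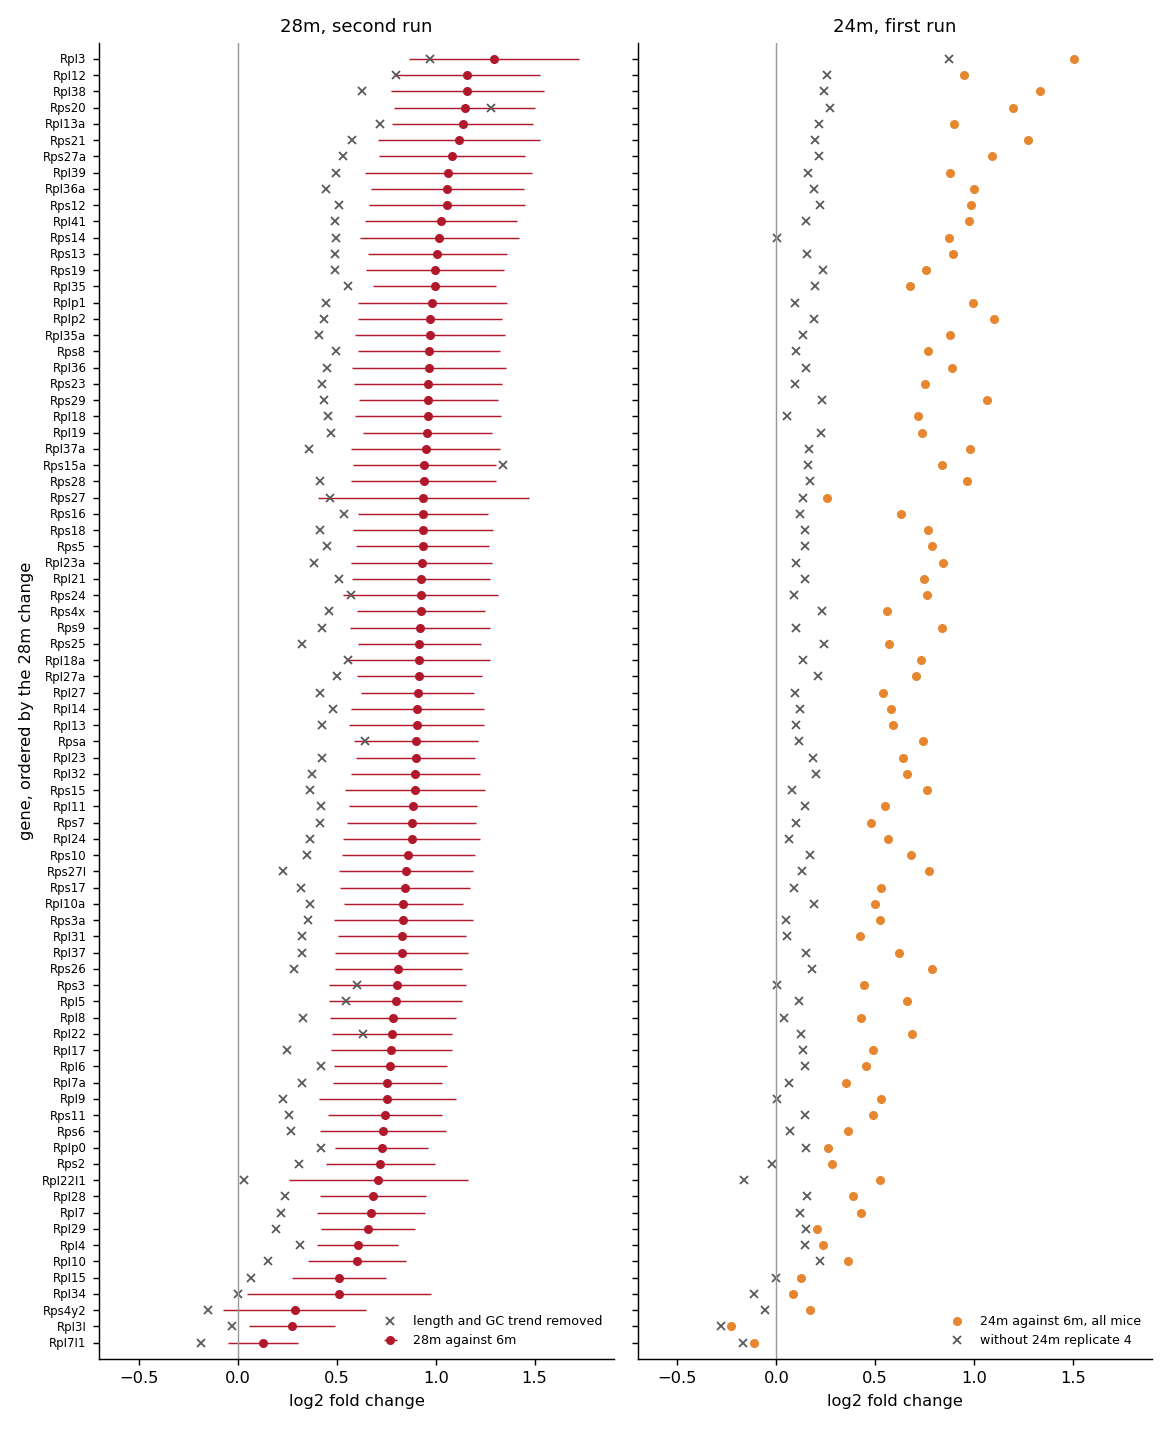
Left, fitted log2 fold changes at 28m of the 80 tested genes (circles, with bars for the 95% confidence interval) and the same with the trend in transcript length and GC content removed (crosses). Right, the same genes at 24m with all mice (circles) and without 24m replicate 4 (crosses). At 28m the circles run from 0.13 to 1.29 and the crosses have a median of 0.42, and at 24m the median falls from 0.67 to 0.14 without that mouse.

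Paralogues rose together in some pairs and apart in others, with the differences between partners not tested except for Rpl3l and Rpl3. Rpl7 rose by 0.67 ± 0.14 on the log2 scale, and its paralogue Rpl7l1, a protein of ribosome assembly, had the lowest value of the family. Rpl7l1 had a lowest, median and highest value of 28.7, 31.9 and 38.0 CPM at 6m and 29.2, 35.6 and 43.2 CPM at 28m, so the groups overlapped. Rpl22 rose by 0.78 ± 0.16, and Rpl22l1, whose splicing and level RPL22 represses, by 0.71 ± 0.23. Rpl22l1 was uneven between mice, at 18.1 to 74.6 CPM at 28m and 22.7 to 30.8 CPM at 6m, and with the first-run 6m libraries as reference it did not pass (0.53, adjusted p = 0.111, edgeR). Rps27l rose by 0.85 ± 0.17, and Rps27, with at most 26 counts, by 0.94 ± 0.27. Neither Rpl22l1 nor Rps27 passed as higher with the trend in transcript length and GC content removed. Rpl36a rose by 1.06 and Rpl36al by 0.76, and Rps4x rose by 0.92. Rpl39 rose by 1.06, while Rpl39l and Rpl10l had too few counts for a test.

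The members' mRNAs are short, and short transcripts as a whole were higher in the old mice. The 80 genes tested at 28m had a median transcript length of 766.5 bases, and the other genes tested had 2836. Across 12871 genes with a known length, Spearman's rho between the 28m log2 fold change and length was -0.62, and the 945 other genes with transcripts under 1000 bases had a median log2 fold change of 0.58. Within the 80 genes the rho was -0.29. Genes are not independent replicates, and these values are descriptions. After each library had been freed of a smooth trend in length and GC content, 72 of the 80 genes were higher at 28m and 1 was lower. The median log2 fold change was then 0.42, where 19% of all genes were higher and 13.2% lower. The genes that were not higher under this setting were Rpl3l, Rpl7l1, Rps4y2, Rpl34, Rpl15, Rpl10, Rpl22l1 and Rps27, and Rpl7l1 was the lower one (-0.19, adjusted p = 0.0402, edgeR). The lengths taken for Rps15a and Rps20, 5130 and 3706 bases, are doubtful, so their values under this setting are too.

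The same shift with length was seen between libraries of the same mouse. In the first-run library of 6m replicate 4, the rho between the change against the 6m mean and length was -0.62, and the median of the 77 genes was 0.60 on the log2 scale. In the second library of that mouse the rho was 0.01 and the median -0.03. All 77 genes were lower in the second library of this mouse, by a median log2 difference of -0.75, whereas in the other 6 mice the medians lay between -0.10 and 0.03. The 28m libraries had a rho between -0.62 and -0.21, and the second-run 6m libraries lay between -0.17 and 0.17. What separates the 2 libraries of this mouse, and its part in the 28m result, was not tested.

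Rpl3 and Rpl3l went apart with age. Rpl3 lies on chromosome 15 (80077791 to 80091868, minus strand) and Rpl3l on chromosome 17 (24727820 to 24736143, plus strand) of GRCm38, with transcripts of 1351 and 1375 bases. In the 6m mice of the second run, Rpl3 had a lowest, median and highest value of 26.2, 31.8 and 38.7 CPM and Rpl3l of 516, 557 and 611 CPM. At 28m Rpl3 had 47.1, 63.3 and 162 CPM, above all 6m mice in 8 of 8, and Rpl3l had 517, 728 and 869 CPM, above all 6m mice in 5 of 8. Rpl3 had the largest rise of the family (1.29 ± 0.22, SE; adjusted p = 0.000679, edgeR), and Rpl3l did not pass (adjusted p = 0.0519). The call on Rpl3l turned on the setting. It passed with DESeq2 (log2 fold change 0.29, adjusted p = 0.0339) and without 28m replicate 4, 6 or 8, and with the length and GC trend removed it was -0.03 (adjusted p = 0.784). The 1.29 of Rpl3 was 0.97 with that trend removed (adjusted p = 0.00127, edgeR).

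The ratio of Rpl3l to Rpl3 counts within a library was lower in the old mice. The mean log2 ratio was 4.17 ± 0.25 (SD, n = 7) in the second-run 6m libraries and 3.22 ± 0.56 (SD, n = 8) at 28m, a difference of -0.95 with p = 0.000932 (exact permutation test of the means over 6435 assignments, two-sided). In counts, a library had 13.3 to 23.4 times as many Rpl3l as Rpl3 counts at 6m and 4.72 to 14.0 times as many at 28m, and 6 of the 8 mice at 28m lay below all 6m mice. At 24m the mean log2 ratio was 2.73 ± 1.24 (SD, n = 7) against 4.12 ± 0.23 (SD, n = 7) in the 6m libraries of the first run, a difference of -1.40 with p = 0.00291 (exact permutation test, two-sided, 3432 assignments). The 2 p-values are 0.00186 and 0.00291 after Benjamini-Hochberg adjustment over both tests. Without 24m replicate 4 the difference was -1.11 (exact permutation p = 0.00583). In the 2 libraries of 6m replicate 4, the log2 ratio was 4.13 and 4.31. This gap of 0.18 was smaller than the SD between the 6m mice but larger than in the other 6 mice, where it ran from -0.04 to 0.11.

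**Figure D4:**
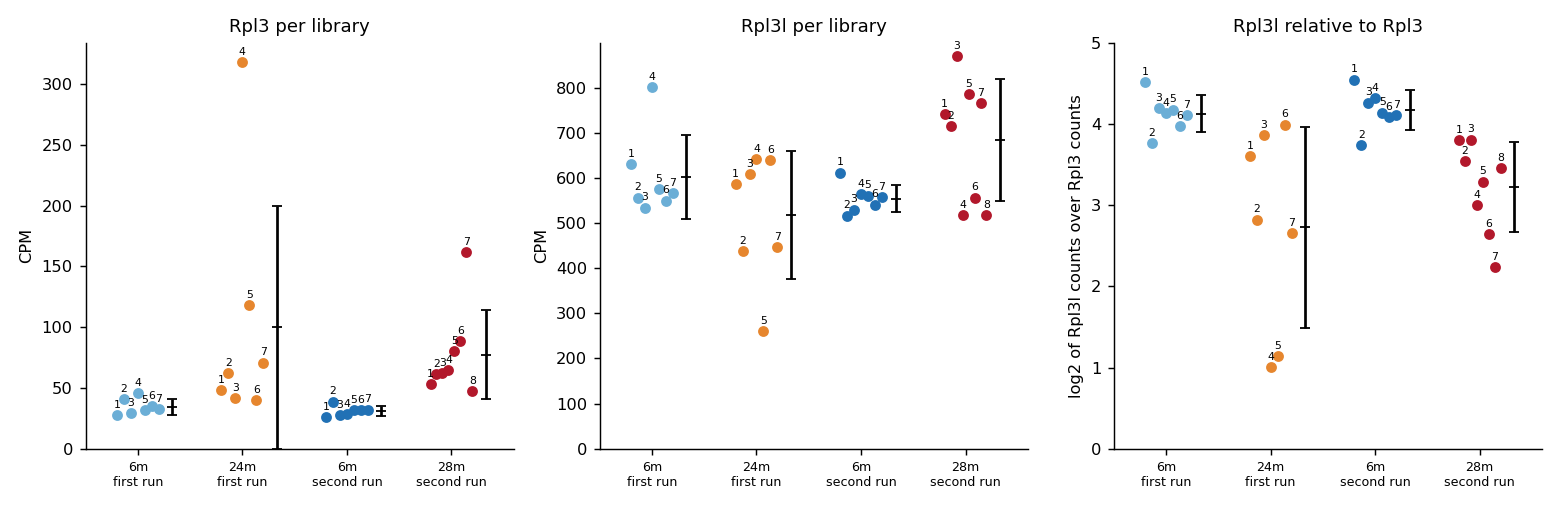
Rpl3 (left) and Rpl3l (middle) in CPM and the log2 ratio of Rpl3l to Rpl3 counts (right) in every library, with the replicate number above each point and the mean ± SD beside each group. The ratio lies between 3.76 and 4.52 in the 6m mice of the first run, between 1.01 and 3.99 at 24m, between 3.74 and 4.54 in the 6m mice of the second run and between 2.24 and 3.81 at 28m.

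In each of the 5 mice at 24m whose ratio lay below all 6m mice of the run, Rpl3 was above the 27.5 to 45.7 CPM of those 6m mice, and in 3 of the 5 Rpl3l was also below their 534 to 801 CPM. In 24m replicate 4, Rpl3 was at 318 CPM, the highest of all 29 libraries, with Rpl3l at 641 CPM. In 24m replicate 5, Rpl3l was at 260 CPM, the lowest of all 29 libraries, and Rpl3 at 118 CPM, while the median of the 77 genes was only 0.15 on the log2 scale against 6m. Replicates 2 and 7 had Rpl3 at 62.0 and 70.9 CPM and Rpl3l at 438 and 447 CPM, both outside the range of the 6m libraries of their run. Replicate 1 had 12.1 times as many Rpl3l as Rpl3 counts, with Rpl3 at 48.3 CPM and Rpl3l at 586 CPM, inside the 6m range of Rpl3l. Replicates 3 and 6 had log2 ratios of 3.87 and 3.99, within the 6m range. The 3 mice with low Rpl3l, replicates 2, 5 and 7, also had the lowest summed fast-fibre markers of the 24m mice, at 142350, 124269 and 138218 CPM, against 173112 to 204997 in the other 24m mice and 170990 to 195581 at 6m. Their summed immune markers were at 751, 269 and 468 CPM, against 106 to 331 in the 6m mice and 105 to 426 in the other 24m mice. The part of either in the Rpl3l values was not tested.

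Over the 15 libraries of the second run, with the mean of each age group taken out, the genes whose log2 CPM was most like that of Rpl3l were Pttg1, Ndufb8, Pla2g12a, 0610012G03Rik and Slc25a4, with Pearson's r from 0.974 to 0.982 out of 12993 genes compared. The libraries share depth and the length shift described above, and these values are descriptions. All 5 rose at 28m, by 0.39 to 0.65 in log2 fold change with adjusted p between 0.0056 and 0.0299 (edgeR). In that test 24.3% of all genes were higher and Rpl3l itself did not pass, so nothing particular to the 5 genes is read from this.

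At 24m, no ribosomal protein gene passed the test. By edgeR, 0 of 81 genes tested were higher or lower at an adjusted p under 0.05, where 0.0611% of all 13103 genes were higher and 0.0229% were lower, and 33 of the 81 had an unadjusted p under 0.05. DESeq2, which by default replaces outlying counts in groups of this size, called 1 gene, Rpl3 (log2 fold change 1.52, adjusted p = 0.0232), with 7 at an unadjusted p under 0.05. By DESeq2 1.05% of all genes were higher and 0.343% lower, so 1 gene of 81 is near the background. Limma-voom called 0, with 4 at an unadjusted p under 0.05. The median log2 fold change was 0.67 by edgeR, 0.45 by limma-voom, 0.17 by DESeq2 and 0.31 by edgeR with the length and GC trend removed. By edgeR 79 of 81 values were above 0, the exceptions being Rpl3l (-0.23 ± 0.17, SE) and Rpl7l1 (-0.11). For 0 of the 81 genes did all 24m mice lie above all 6m mice, against 0.359% of all genes.

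One mouse carried most of the 24m values. Without 24m replicate 4 the median log2 fold change was 0.14 and 74 of 81 values were above 0, with 0 called and 5 at an unadjusted p under 0.05 (edgeR). In that mouse 76 of the 77 well-counted genes were above every 6m library of the run, with a median log2 change of 2.27, and in the other 6 mice 0 to 2 were, with medians from 0.05 to 0.24. Rpl38 shows this pattern, with a lowest, median and highest value of 38.7, 43.1 and 389 CPM at 24m, where 389 CPM is replicate 4, and of 26.0, 33.2 and 57.5 CPM at 6m in the first run, where 57.5 CPM is 6m replicate 4. Rpl12 was at 737 CPM in 24m replicate 4 and at 117 to 151 CPM in the other 24m mice. Without the first-run library of 6m replicate 4 the median was 0.78, with 0 called and 62 at an unadjusted p under 0.05 (edgeR). Leaving out any other 6m mouse gave 8 to 14 at an unadjusted p under 0.05, and leaving out any 24m mouse but replicate 4 gave 41 to 54, with 0 called each time. In 24m replicate 4 the rho with length was -0.48, the summed slow-fibre markers were at 422 CPM against 55.4 to 101 in the other 24m mice, and the adipocyte markers at 582 against 127 to 214, and their part in its high values was not tested.

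Between the 2 libraries of the 6m mice, 0 of 79 genes tested differed by edgeR (0% of all 12884 genes higher and 0% lower), with 8 at an unadjusted p under 0.05 (9 by DESeq2 and 3 by limma-voom, which also called 0). All 79 values were below 0, with a median of -0.14, and without 6m replicate 4 the median was -0.03 with 55 of 79 below 0. The difference between the 28m and the 24m effect, each against the 6m libraries of its run, was tested over all 29 libraries. It gave 0 of 81 genes by edgeR (0% of all 13455 genes either way), with 4 at an unadjusted p under 0.05, Rpl29, Rplp0, Rpl3l and Rpl4, and a median difference of 0.22. DESeq2 and limma-voom also called 0, each with 4 at an unadjusted p under 0.05. Without 24m replicate 4, 72 of 81 genes had a larger rise at 28m than at 24m and 0 a smaller one, with a median difference of 0.81 on the log2 scale, where 8.92% of all genes were higher and 3.36% lower. That fit kept the first-run library of 6m replicate 4, which stood apart from its group. Leaving out 6m replicate 4 but not 24m replicate 4 gave 0 of 81 genes and a median difference of 0.11. A fit without both mice was not run. These fits had no block for the mouse. With the mouse as a block and all 29 libraries, 24m replicate 4 included, 0 genes passed by limma-voom. There 8 were at an unadjusted p under 0.05 and the median was 0.39, as for limma-voom without the block. The block was not run without 24m replicate 4.

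The other components of the translation machinery were read from lists of named genes. Among the ribosomal proteins under other symbols, Fau (1.11), Gnb2l1, now Rack1 (0.73), and Rpl36al (0.76) rose at 28m, in log2 fold change with adjusted p under 0.05. The mitochondrial ribosomal proteins, made in the cytosol for the separate ribosomes of mitochondria, had 60 of 76 higher and 1 lower with a median of 0.46, from Mrpl33 (0.91) to Mrps2 (-0.21). Other mRNAs with a TOP tract had 10 of 13 higher and 0 lower with a median of 0.56, among them Tpt1 (0.64) and Npm1 (0.70), with Pabpc1 (-0.15), Hnrnpa1 (0.06) and Eef2 (0.01) not passing. Of the elongation factors 5 of 8 were higher and 1 lower, with Eef1b2 at 1.04 and Eef1a1 at 0.70, whereas the muscle form Eef1a2 had 0.16 and did not pass. The lower gene was Eef2k (-0.39), the kinase that inhibits eEF2.

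Initiation factors had 15 of 27 higher and 2 lower with a median of 0.23, with Eif4a1 at 0.81 and Eif5b at 0.86, and with the scaffolds Eif4g1 (-0.47) and Eif4g2 (-0.28) lower. Ribosome biogenesis genes had 18 of 30 higher and 4 lower with a median of 0.30. Among those higher were Nhp2 (0.79) and Eif6 (0.77), and the lower ones were Heatr1 (-0.54), Rrn3 (-0.28), Bms1 (-0.28) and Tcof1 (-0.27). Of 11 regulators of ribosome production, 2 were higher, Myc (0.95) and Eif4ebp1 (0.82). The 5 lower ones were Eif4ebp2 (-1.35), Tsc1 (-0.73), Mtor (-0.71), Rptor (-0.63) and Larp1 (-0.30). At 24m, 0 of the 161 genes of these 7 lists that were tested passed by edgeR, with 13 at an unadjusted p under 0.05. These counts are beside 24.3% of all genes higher and 22.9% lower at 28m, and the lists differ in transcript length, so nothing particular to a list is read from them.

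The fast-fibre markers Ckm, Acta1, Myh4 and the others of their list summed to between 124269 and 221589 CPM and each had counts in all 29 libraries, as the labelled tissue requires. Beside the rise of the ribosomal protein genes at 28m, fast-fibre markers had 4 of 10 higher and 1 lower (summed medians 181259 CPM at 6m and 185146 at 28m). Slow-fibre markers had 3 of 5 higher, summing to 33.4 to 84.7 CPM at 6m and 53.1 to 133 at 28m. Immune markers had 0 of 8 called by edgeR, with 1 at an unadjusted p under 0.05 (107 to 324 CPM at 6m, 134 to 724 at 28m), adipocyte markers 1 of 6 higher (162 to 196 CPM at 6m, 149 to 611 at 28m) and tendon markers 1 of 6 higher (211 to 374 and 120 to 402 CPM). Endothelial markers had 6 of 8 lower and 1 higher (443 to 508 CPM at 6m, 252 to 394 at 28m) and fibroblast markers 5 of 8 lower (662 to 3639 and 401 to 1559 CPM). Schwann cell markers had 1 of 5 higher (31.8 to 45.9 and 26.8 to 49.0 CPM), and erythrocyte markers 0 of 2, with 0 at an unadjusted p under 0.05 (5.61 to 27.1 and 3.88 to 25.3 CPM), with Hba-a1 and Hba-a2 at 0 in some libraries. These counts at 28m are beside 24.3% of all genes higher and 22.9% lower, so 1 of 5 or 1 of 6 higher is near the background. At 24m, 0 of the 58 tested markers passed by edgeR, with 14 at an unadjusted p under 0.05. Of all genes, 0.0611% were higher and 0.0229% lower at 24m. At 28m, replicates 1, 2, 3, 5 and 7, with the 5 highest medians of the 77 genes (0.75 to 1.55), had 354 to 611 CPM of adipocyte markers, and replicates 4, 6 and 8, with the lowest (0.20 to 0.62), had 149 to 176. In the first-run and second-run libraries of 6m replicate 4, adipocyte markers summed to 304 and 180 CPM. Its endothelial markers summed to 325 and 484 CPM and its slow-fibre markers to 89.5 and 54.9. Tendon markers (290 and 289 CPM) and Schwann cell markers (45.7 and 45.9 CPM) were close in the 2 libraries. The part of the cell mixture, or of such differences between libraries of the same mouse, in the members' values was not tested. In whole muscle fewer cells of a type and less RNA per cell cannot be told apart.

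Per kilobase of transcript, the members spanned a wide range in the 6m mice of the second run. The median of the 77 well-counted genes was 120.0 CPM per kilobase. Rplp1 (472 ± 27, SD, n = 7), Rpl3l (403 ± 22) and Rps15 (334 ± 19) were the most abundant of the 84 by CPM per kilobase. Rpl3 was among the least abundant of the well-counted genes, at 22.9 ± 3.1 (SD, n = 7), which put Rpl3l 17.6 times higher on this scale at 6m and 8.67 times higher at 28m, by group means. The lowest values were Rpl39l (0.186), Rpl10l and Rpl26 (listed at 0).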

How the data were processed

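Total RNA of the TA muscle of 22 mice was enriched for poly-A and sequenced as 75-base single-end reads. Per the methods and the submitters' processing notes, the authors used bcl2fastq 2.20, aligned to mm10 with STAR 2.5.4b, counted reads per gene with its GeneCounts option and tested with DESeq2 1.22.2 in R 3.5.1. They deposited raw counts, and the strand column used is not given in the sources used here. Total counts per library were 17633475 to 33499162 (median 24250878).

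Differential expression used edgeR 4.0.16 under R 4.3.3 (filterByExpr, TMM, quasi-likelihood F test, Benjamini-Hochberg adjustment at 0.05 over all genes tested). CPM used TMM over all 29 libraries. DESeq2 1.42.0, limma-voom 3.58.1, other scalings, filters, thinning, a length and GC trend (natural splines with 4 degrees of freedom), the other 6m libraries and leaving out each mouse were alternatives. The 6m libraries pair by mouse, from the sample titles, and fits over both runs had no block for the mouse, with the block as an alternative. Count ratios used a pseudocount of 0.5 and exact permutation tests (scipy). Lengths and positions came from GENCODE on GRCm38, matched for 20202 symbols directly and 1896 by synonym, with 439 unmatched. Scripts were tested on simulated data.

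The genes, lists and tests were chosen with earlier results of these data known. Named genes were Rpl3 and Rpl3l, in each comparison up to 8 largest rises and falls with adjusted p under 0.05, paralogue pairs, stalk proteins, Rpsa, Rps6, Rpl5, Rpl11, Rps19, Rpl13a, Rpl10, Rpl38 and Rps25, the 3 most and 3 least abundant genes per length, and the 5 genes most like Rpl3l. Rpl15, Rpl4, Rpl29 and single libraries described beside the results were named after their values were seen. Python 3.11.15 and matplotlib 3.10.9 drew the figures.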

Additional observations from a re-analysis of the deposited data

Results flagged for a closer look

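A library was taken to stand apart where the gap between the highest or lowest value of its group and the next exceeded Dixon's 95% critical value for the group's range. Chance gives this in about 1 in 20 groups. The first-run library of 6m replicate 4 stood apart in the share of counts on the ribosomal protein genes (1.38%), Rpl3l (801 CPM), Rpl38 (57.5 CPM), Rpl12 (169.5 CPM) and Rplp0 (671 CPM), each time as the highest of its group. The library of 24m replicate 4 was the highest of its group in the share of counts (3.73%), Rpl3 (318 CPM), Rpl38 (389 CPM) and Rpl12 (737 CPM). At 28m, replicate 7 stood apart in Rpl3 (162 CPM). Over the 77 well-counted genes, 75 had 6m replicate 4 of the first run apart from its group and 73 had 24m replicate 4 apart, against 1 gene each for a library of the 6m mice of the second run and of the 28m mice. The second library of 6m replicate 4 did not stand apart in any of the 77 genes.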

How the results depend on the processing

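The count of ribosomal protein genes higher at 28m stayed between 72 and 78 over all 26 alternatives, and 1 gene was called lower only with the length and GC trend removed (Rpl7l1, -0.19). Leaving out each mouse in turn gave 76 to 78. Against the first-run 6m libraries it was 74 (12% of all genes), and 75 without 6m replicate 4 (19.1% of all genes), an alternative added after seeing the data. At 24m, DESeq2 called 1 gene, Rpl3 (log2 fold change 1.52). For the difference between the age effects, leaving out a mouse gave 0 to 72, where 72 came without 24m replicate 4. With all libraries, where 0 genes were called, the mouse as a block also called 0, and it was not run without 24m replicate 4 (between runs the median was -0.12, with 9 genes at an unadjusted p under 0.05). The log2 fold change of Rpl3l at 28m passed with DESeq2 (0.29), upper-quartile scaling (0.32), TMM without the 84 genes (0.28), at least 10 counts in every library (0.27) and thinned counts (0.28), was -0.031 with the trend removed, and ran from 0.23 to 0.32 without single mice, passing without 28m replicate 4, 6 or 8. The alternatives of the Rpl3l to Rpl3 ratio kept direction and side of the threshold. The ratio difference without single mice was -1.03 to -0.81 at 28m and -1.61 to -1.11 at 24m. Rpl7l1 at 28m was -0.017 against the first-run 6m libraries and Rps4y2 was -0.15 with the trend removed. The difference in share of counts at 28m was 0.597 percentage points without Rpl3l and the 3 most abundant genes, 0.590 against the first-run 6m libraries, and 0.569 to 0.763 without single mice. At 24m it was 0.152 to 0.594 without single mice, where 0.152 is without 24m replicate 4. Of 752 values of 29 other genes at 28m, 740 kept their direction and side of the threshold. The cause of these changes was not tested, and the strand setting and copies of these genes limit single values.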
